A study of Mus musculus with 4 samples.

Results

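M1dup cells are one of 45 retinal ganglion cell (RGC) types named in a Xenium map of the mouse retina, and one of 4 whose names are those of intrinsically photosensitive RGCs (ipRGCs). They were taken as the cells whose deposited type name is 40_M1dup: 729 of 131379 RGCs. The retinas were wild type, from C57BL/6 mice that had no treatment; the labels give neither age nor sex. Each retina was cut en face into sections 20 µm thick, and Xenium imaging counted single RNA molecules (puncta) of 300 genes in each outlined cell. The replicate was the retina (n = 5, all in 1 group); whether these came from different mice is unstated, so a p-value covers no more than the spread among the 5. The labels do not explain "dup", and no assignment rule for the types is given in the sources used here.

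ipRGCs sense light on their own with the photopigment melanopsin, the product of Opn4, and serve the body clock, the pupil reflex and other responses to brightness as well as some pattern vision. Their named types are graded by melanopsin: M1 cells are the best known, with the most pigment and a strong drive to the clock and pupil centres, while M2 and M5 cells hold less of it. The T-box transcription factor genes Eomes (its protein is also called Tbr2) and Tbx20 are known in ipRGCs, where Eomes is needed for the cells to form and keep melanopsin.

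M1dup cells numbered 160, 222, 76, 147 and 124 in retinas 1 to 5, or 0.456%, 0.541%, 0.579%, 0.530% and 0.863% of the RGCs there. The mean was 0.594% ± 0.157 (SD, n = 5, as for every ± below unless an SE is named), and retina 5 stood above the other 4, without which the mean was 0.526% ± 0.0515. The retinas held 13127 to 41048 RGCs on 41 sections, and no cell name occurred in more than 1 retina. M1dup cells had a median of 298 to 334 puncta per cell by retina. Shares are of the cells called RGCs, not of all retinal cells, and every cell had at least 100 puncta.

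The markers bore out the name for most members but not all. Opn4, Eomes and Tbx20 were all found in 501 of the 729 cells (68.7%). A further 78 cells had 2 of them and 73 had 1, while 77 cells (10.6%) had none. All 3 markers were present in 15.1% of M5, 37.9% of M1 and 39.8% of M2 cells, and in 0.505% of cells of the other 41 types. The M1dup cells without any marker made up 8.75%, 4.05%, 9.21% and 12.9% of members in retinas 1 to 4 and 22.6% in retina 5. At least 1 Opn4 punctum was present in 78.0% ± 11.4 of M1dup cells, against 3.81% ± 0.225 of cells of the 41 other types, at median depths of 315 and 305 puncta. With every cell thinned to 100 puncta these values were 72.8% ± 11.2 and 1.40% ± 0.0993. Retina 5 had the lowest share with Opn4, 58.1%, against 81.6% to 86.9% in the other retinas.

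Members therefore differed widely in melanopsin. Of the 729 cells, 470 had at least 5 Opn4 puncta, 108 had 1 to 4 and 151 (20.7%) had none. The members without Opn4 had fewer puncta in all (median 267, against 348 in those with at least 5) and a smaller volume (574 against 649, in the unstated units of the file). Members with 1 to 4 Opn4 puncta were lower still in both, at 246 puncta and a volume of 531. Members without Opn4 also had less of most other genes that marked the type. Their levels were 1.21 ± 0.361 Lxn, 0.379 ± 0.486 Col9a1 and 2.03 ± 1.23 Tbx20 puncta per 1000 puncta of the cell. This scale is used for all levels here. Members with at least 5 Opn4 puncta had 17.8 ± 3.86, 7.67 ± 1.09 and 18.3 ± 1.84. Genes in the other direction included Cd9, a membrane tetraspanin (6.50 ± 4.38 without Opn4, 0.517 ± 0.247 with at least 5 puncta), and Penk, the gene of the opioid peptide precursor proenkephalin (3.12 ± 1.44 and 0.407 ± 0.162). These genes were chosen after their values were seen, and since Opn4 and its partners can have served the type call, the split is a description with no test.

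Markers of other cells were compared between members without Opn4 and members with all 3 markers, a different split. Means were higher without Opn4 for each list but the horizontal cell genes (11.7 ± 2.73 against 17.6 ± 1.57), though several ranges over the retinas overlapped. The 7 Müller glia genes on the panel summed to 6.96 to 21.9 over the retinas in members without Opn4, against 4.95 to 6.78 in members with all 3 markers. The 2 microglia genes, Tmem119 and Aif1, summed to 0.226 to 11.7 and 0.107 to 0.490, the 2 astrocyte genes to 1.53 to 9.05 and 0.830 to 1.25, and the single endothelial gene, Cdh5, to 0 to 1.99 and 0.0892 to 0.277. For the 18 amacrine genes the sums were 59.7 to 81.9 and 56.6 to 62.7, for the 16 bipolar genes 6.21 to 23.8 and 3.78 to 6.29, for the 3 rod genes 2.83 to 14.8 and 2.52 to 4.44, for the 3 cone genes 0.118 to 0.923 and 0.219 to 0.470, for the 6 horizontal cell genes 9.38 to 16.5 and 15.4 to 19.6, and for the 2 pericyte and smooth muscle genes 0 to 2.05 and 0.0446 to 0.321. Of the genes in these lists, Sst, Vip and Gngt2 were at 0 in members without Opn4. The pan-RGC genes Rbpms, an RNA-binding protein gene, and Slc17a6, the vesicular glutamate transporter VGLUT2, were found in 83.4% and 84.8% of members without Opn4, and 7.28% of those cells had neither, against 96.8%, 97.4% and 0.426% of members with at least 5 puncta. In these pan-RGC genes, members with 1 to 4 Opn4 puncta were near those without, at 85.2%, 83.3% and 10.2%. Their levels of Tbx20 (10.9 ± 1.93), Lxn (4.91 ± 2.70), Col9a1 (3.34 ± 1.01) and Cd9 (1.61 ± 1.49) lay between those of the other classes. The part of the markers of other cells in the results below was not tested.

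Members without the markers were also placed unevenly over sections. The 11 sections with under 500 RGCs held 50 M1dup cells among 1719 (2.91%), against 0.413% in the 10 sections with the most RGCs. Only 44% of the 50 had Opn4, against 82.8%. M1dup cells with all 3 markers were 0.582% and 0.307% of RGCs in these section classes. Small sections were shallower, with a median of 220 puncta per cell against 310. The extremes were 2 small sections of retina 4, with 10 M1dup cells of 65 RGCs (15.4%, exact 95% binomial interval 7.63 to 26.5, for counting error only) and 8 of 77 (10.4%, 4.59 to 19.4), none of them with all 3 markers. Opn4 was present in 8 of the 10 M1dup cells of the first section and in 1 of the 8 of the second. M1 cells were also more frequent in the small sections (2.91% against 0.964%).

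**Figure D1:**
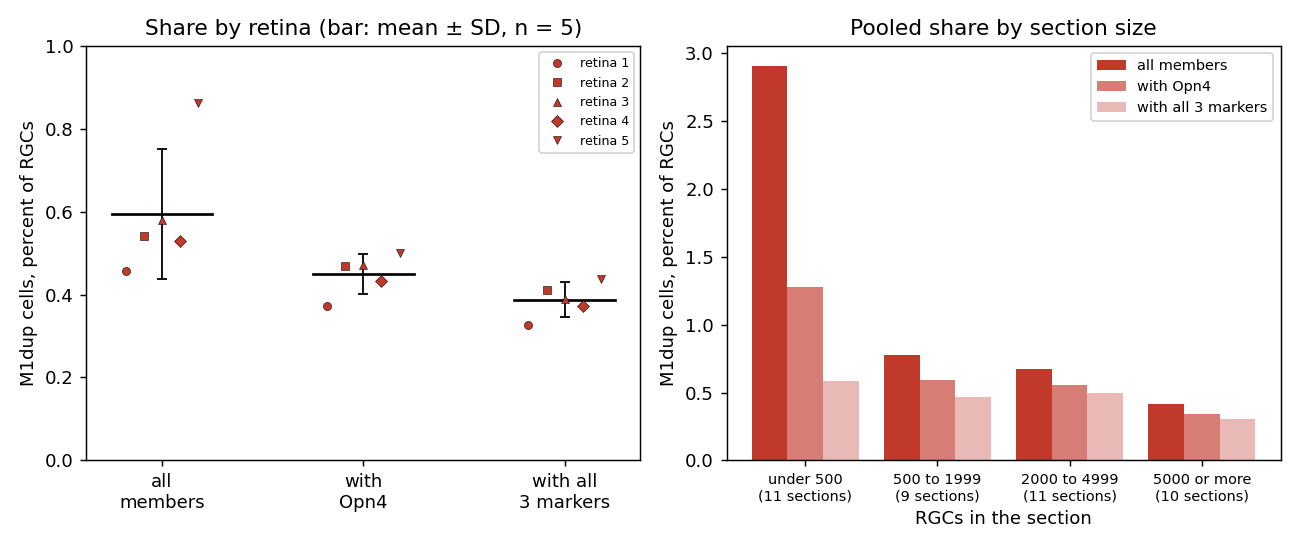
Left, share of M1dup cells among RGCs in each of 5 retinas (points, with mean ± SD) for all members, members with at least 1 Opn4 punctum and members with Opn4, Eomes and Tbx20. Right, the pooled share by the number of RGCs in the section. Retina 5 stands apart at 0.863% for all members and comes to 0.501% for members with Opn4; the share of all members is highest, 2.91%, in sections under 500 RGCs.

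Members with Opn4 varied less between retinas. They made up 0.373%, 0.470%, 0.472%, 0.433% and 0.501% of RGCs in retinas 1 to 5 (0.450% ± 0.0492), and their coefficient of variation was 10.9%, against 26.4% for all members. For members with all 3 markers it was 10.8%, and without retina 5 it was 9.79% for all members. M5, M1 and M2 cells varied by 11.7%, 9.52% and 12.2%.

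M1dup was the type with the most melanopsin RNA. Opn4 stood at 34.1, 31.2, 24.9, 29.1 and 19.1 puncta per 1000 in retinas 1 to 5, against 3.44, 3.00, 3.26, 3.07 and 2.63 in M5 cells. The lowest retina for M1dup, retina 5, was still above the highest M1 value of 18.6. Means were 27.7 ± 5.86 for M1dup, 3.08 ± 0.304 for M5, 14.5 ± 3.30 for M1 and 5.87 ± 0.401 for M2, and 0.679 ± 0.0914 as the mean of the 44 types other than M1dup. Per cell this was 9.25 ± 2.12 Opn4 puncta, against 0.932 ± 0.121 in M5, 3.59 ± 0.950 in M1 and 1.87 ± 0.116 in M2 cells. Of the genes given below, levels are compared between types and not between genes, since puncta depend on the probes. All differences between types are descriptions with no test, because the types may rest on these same genes.

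**Figure D2:**
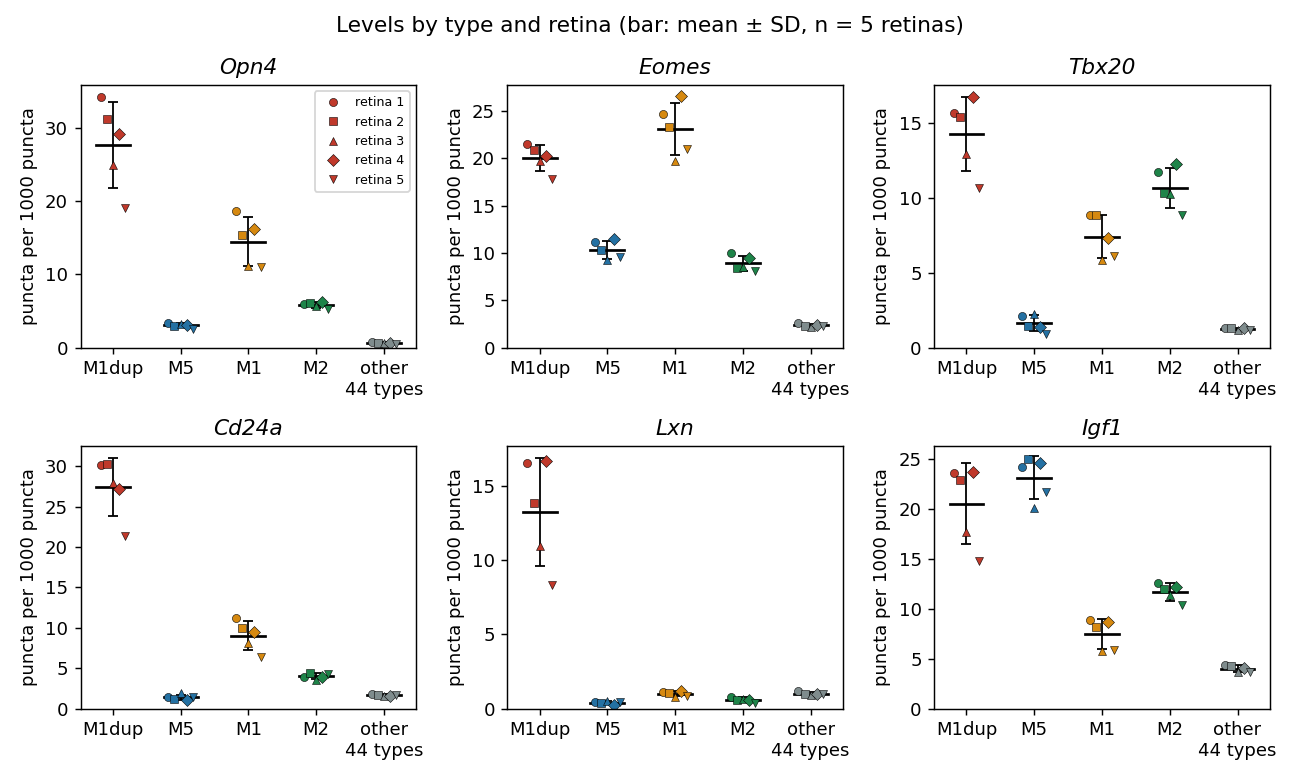
Levels of 6 genes (puncta of the gene per 1000 puncta, linear axes from 0) in M1dup, M5, M1 and M2 cells and as the mean of the 44 types other than M1dup, in each of 5 retinas (points), with mean ± SD. Opn4, Cd24a and Lxn are highest in M1dup, Eomes is about as high in M1, and Igf1 about as high in M5.

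The T-box genes did not rank the types alike. Tbx20 had 15.7, 15.4, 12.9, 16.7 and 10.6 puncta per 1000 in M1dup cells, second of the 45 types after 07_Novel (27.2), and followed by M2 (10.7). Eomes had 20.0 ± 1.41 in M1dup cells, below M1 (23.0 ± 2.75) and above M5 (10.3 ± 0.971). M1dup was the lower of the pair in all 5 retinas for Eomes against M1, by a log2 ratio of -0.20 ± 0.14. Igf1, the gene of insulin-like growth factor 1, had 20.5 ± 4.06, close to M5 (23.1 ± 2.13) and above M1 (7.47 ± 1.52). Prkcq, a protein kinase C gene, had 3.95 ± 0.676, second to 43_AlphaONS (4.33). The remaining 2 of the 7 panel genes on the melanopsin and ipRGC list were not high in M1dup. Anxa2, an annexin gene, had 0.887 ± 0.370 against a mean of 2.66 ± 0.194 over the other types, and Lmo2, a LIM-domain transcription cofactor gene, had 1.02 ± 0.566 against 1.20 ± 0.109, a difference within the spread between retinas.

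Against the mean of the other 44 types, 33 of the 300 panel genes (11.0%) were at least 2-fold higher in M1dup and higher in every retina, and 46 (15.3%) were at least 2-fold lower and lower in every retina. After Opn4, with a log2 ratio of 5.32 ± 0.16, the largest ratios belonged to Col9a1, a collagen IX chain (4.78 ± 0.34), and Cd24a, a small surface glycoprotein (4.03 ± 0.24). Next came Gal, the neuropeptide galanin (3.68 ± 0.33), Lxn, the carboxypeptidase inhibitor latexin (3.66 ± 0.37), and Zcchc12, a zinc-finger transcriptional coactivator (3.59 ± 0.25). Tbx20 (3.47 ± 0.20), Eomes (3.08 ± 0.07), the uncharacterised A730046J19Rik (3.07 ± 0.40) and Th, tyrosine hydroxylase of catecholamine synthesis (3.03 ± 0.36), followed. The list of 15 was completed by Prkcq (2.83 ± 0.31), Qpct, a glutaminyl cyclase (2.83 ± 0.31), Igf1 (2.34 ± 0.21), Tac2, which encodes neurokinin B (2.27 ± 0.49), and Rab3b, a GTPase of synaptic vesicles (2.16 ± 0.19). Of the 300 genes, 13 had their highest level of all types in M1dup: Opn4, Col9a1, Cd24a, Gal, Lxn, Zcchc12, Th, Qpct, Tac2 and 4 channel genes. M1 was the second type for Opn4, Col9a1, Cd24a, Zcchc12, Th, Qpct and Tac2. Several levels were close: Zcchc12 had 10.0 in M1dup and 8.97 in M1, Tac2 5.29 and 4.73, and Th 0.838 and 0.661. Qpct had 5.77 and 3.86, Prkcq 3.95 and 3.52, and Rab3b 1.72 and 1.67.

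The 12 lowest genes included transcription factor, receptor and channel genes. Neurod2, a helix-loop-helix factor gene, had 0.138 ± 0.0275 puncta per 1000 against 0.785 ± 0.0425 over the other types (log2 ratio -2.42 ± 0.24), and Penk had a ratio of -2.13 ± 0.45. Spp1, the gene of osteopontin and a mark of alpha RGCs, had -2.06 ± 0.29, and Isl2, a LIM homeobox gene, had -1.87 ± 0.74. Kcna1, a voltage-gated potassium channel subunit (-1.86 ± 0.31), and the GABA-A receptor subunit genes Gabra2 (-1.86 ± 0.32) and Gabrg1 (-1.86 ± 0.69) were similarly lower. Sh3bgr (-1.84 ± 0.47), Syndig1l (-1.80 ± 0.37), Lgi2 (-1.79 ± 0.70), Tmem163 (-1.75 ± 0.28) and Tfap2d (-1.67 ± 0.71) completed this group, and Sh3bgr and Tmem163 had their lowest level of the 45 types in M1dup.

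By gene group, the counts are to be read beside the whole panel, of which 11.0% was at least 2-fold higher and 15.3% at least 2-fold lower. The 58 ion channel genes were those with symbols beginning with Kcn, Scn, Cacn or Hcn. They included auxiliary subunits, the non-coding Kcnq1ot1 and channels not gated by voltage, such as Kcnj3, Kcnk1 and Kcnn1. Of the 58, 3 were at least 2-fold higher and 12 at least 2-fold lower in all retinas. Against a median log2 ratio of -0.14 over all 300 genes, theirs was -0.47. Their sum was 251 ± 9.72 puncta per 1000 in M1dup cells and 347 ± 4.74 in the 41 types without an ipRGC name. In M1 (274 ± 9.07) and M5 cells (296 ± 5.64) it was also below that of the 41 types. The exceptions included the 4 channel genes with their highest level in M1dup. Kcnh1, of the ether-à-go-go potassium channels, had 5.95 ± 1.14 against 1.65 ± 0.167 over the other types, Scn9a, a sodium channel alpha subunit, had 2.63 ± 0.509 against 0.653 ± 0.0553, Scn3b, a sodium channel beta subunit, had 6.66 ± 1.10 against 2.57 ± 0.163, and Cacna1b, the N-type calcium channel, had 17.1 ± 1.20 against 12.2 ± 0.329. Of 15 GABA and glycine receptor genes, none was 2-fold higher and 3 were 2-fold lower (median -0.51), and of 14 glutamate receptor genes 1 was higher, Gria1 (1.55 ± 0.22), and 2 were lower, Grik1 (-1.47 ± 0.67) and Grm5 (-1.18 ± 0.44; median -0.35). All 6 RGC genes had mean log2 ratios below 0, and 2 were at least 2-fold lower in all retinas, the POU-domain factor genes Pou4f2 (-1.02 ± 0.32) and Pou4f3 (-1.62 ± 0.71). Slc17a6 had 19.7 ± 0.833 against 35.1 ± 1.47, and Rbpms 14.8 ± 1.31 against 20.0 ± 0.712. The 6 RGC genes summed to 56.8 in M1dup, 52.7 in M1, 73.0 in M5 and 83.1 in the 41 types without an ipRGC name. In the same order, GABA and glycine receptor genes summed to 48.4, 54.5, 54.8 and 69.9, and glutamate receptor genes to 57.0, 63.5, 55.0 and 63.9. Of 17 RGC transcription factor genes, 2 were 2-fold higher, Eomes and Tbx20, and 7 were lower, and of 6 neuropeptide genes Gal was higher and Penk lower.

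M1dup and M5 cells differed in about as many genes each way. Of 300 genes, 35 (11.7%) were at least 2-fold higher in M1dup than in M5 cells in all retinas, and 32 (10.7%) at least 2-fold lower. Lxn had 16.5, 13.8, 10.9, 16.7 and 8.29 puncta per 1000 in M1dup cells, against 0.451, 0.349, 0.486, 0.246 and 0.425 in M5 cells (log2 ratio 5.04 ± 0.72), so the groups lay far apart in every retina. Gal (4.60 ± 1.07), Cd24a (4.30 ± 0.37), Zcchc12 (4.29 ± 0.76), Rprm, the cell-cycle gene reprimo (4.19 ± 0.62), and Col9a1 (4.12 ± 0.33) followed. Cdkn1c, a cyclin-dependent kinase inhibitor, had a ratio of 3.56 ± 0.80, Ebf3, a transcription factor gene, 3.36 ± 0.23, A730046J19Rik 3.39 ± 1.40, Th 3.25 ± 0.42, Tbx20 3.15 ± 0.45 and Opn4 3.14 ± 0.24.

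The genes higher in M5 cells had other roles. Ramp3, a partner of calcitonin-family receptors, had 0.180, 0.189, 0.152, 0.151 and 0.199 in M1dup cells, against 2.19, 2.50, 1.60, 2.09 and 2.61 in M5 cells (-3.56 ± 0.19). Ctxn3, a cortexin gene, had 2.18 ± 0.247 against 23.6 ± 2.15 (-3.43 ± 0.20), and Slc17a8, the vesicular glutamate transporter VGLUT3, a ratio of -3.09 ± 0.75. The adhesion gene Cdh8 (-2.67 ± 0.28), the potassium channel beta subunit Kcnab3 (-2.41 ± 0.43), the protease inhibitor Serpine2 (-2.16 ± 1.02), the calcium channel subunit Cacna2d3 (-1.85 ± 0.37) and Arpp21 (-1.81 ± 0.34) were also lower in M1dup. So were Pou4f2, the RGC transcription factor also called Brn3b (-1.74 ± 0.56), Zfp804a (-1.72 ± 0.34), Ndnf (-1.62 ± 0.19) and the exchanger gene Slc24a2 (-1.58 ± 0.31).

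Of the 3 other ipRGC types, M1 differed from M1dup in the fewest genes. Against M1 cells, 11 genes (3.67%) were at least 2-fold higher in M1dup in all retinas and 12 (4.00%) at least 2-fold lower; against M2 cells the counts were 35 (11.7%) and 39 (13.0%). The genes named for M1 and M2 cells were chosen after their values were seen. Lxn had the highest ratio to M1 as well, at 13.2 ± 3.62 puncta per 1000 in M1dup and 1.00 ± 0.174 in M1 cells (log2 ratio 3.68 ± 0.21). Cpne4, a copine gene (1.76 ± 0.33), Gal (1.62 ± 0.40), Cd24a (1.62 ± 0.14) and Igf1 (1.46 ± 0.11) were next, and Opn4 had a ratio of 0.94 ± 0.14. In the other direction stood Sst, the gene of somatostatin (-3.70 ± 0.65), with 0.0180, 0.0404, 0, 0.151 and 0 in M1dup and 0.328, 0.586, 0.239, 1.15 and 0.305 in M1 cells. Tmem119 and Aif1 of microglia and Cdh5 of endothelium were lower in M1dup too (-2.76 ± 2.27, -1.40 ± 1.14 and -1.72 ± 1.49). Against M2 cells the largest difference was in Spp1, 1.36 ± 0.260 in M1dup and 32.5 ± 2.45 in M2 cells (-4.59 ± 0.36).

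Restricting the members changed these values. In members with all 3 markers the count of genes at least 2-fold lower than in the other types was 71, against 46 over all members. Log2 ratios in these members were 5.70 for Opn4, 4.34 for Cd24a and 4.05 for Lxn. The selection itself required Opn4, so its ratio was raised by that choice and is no separate result.

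M1dup cells took a larger share of RGCs toward the edge of the retina; whether position entered the type call is not stated. In the scaled positions that the authors deposited, with the radius split at 0.5, M1dup cells were 0.490%, 0.594%, 0.756%, 0.669% and 1.08% of RGCs in the periphery of retinas 1 to 5, against 0.347%, 0.443%, 0.413%, 0.257% and 0.682% in the centre. The periphery was higher in every retina. The log2 ratio was 0.71 ± 0.15 (SE; adjusted p = 0.0017 over 45 types, edgeR quasi-likelihood test with the retina as a block), in a comparison where 19 of 45 types (42.2%) differed and 12 (26.7%) were higher peripherally. Shares add up to the whole, so a change in some types shifts the others, and in simulated data this fit also called some types that had not been changed. M1 (0.51 ± 0.10, SE; adjusted p = 0.0016) and M2 (0.37 ± 0.08, SE; adjusted p = 0.0020) were among the types called higher peripherally in the same edgeR fit, and M5 was not called (-0.04 ± 0.11, SE; adjusted p = 0.79). In 4 bins of equal width in the scaled radius, from inside to outside (the last open to the edge), the mean shares were 0.345% ± 0.143, 0.474% ± 0.196, 0.631% ± 0.251 and 0.903% ± 0.299. For members with Opn4 they were 0.235%, 0.343%, 0.475% and 0.749%, and the ratio of sides was 0.79 ± 0.16 (SE). With the section as the block in place of the retina, the ratio was 0.45 ± 0.15 (SE; adjusted p = 0.011 by the same test). It was 0.64 ± 0.24 (SE; adjusted p = 0.078) with no block at all.

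**Figure D3:**
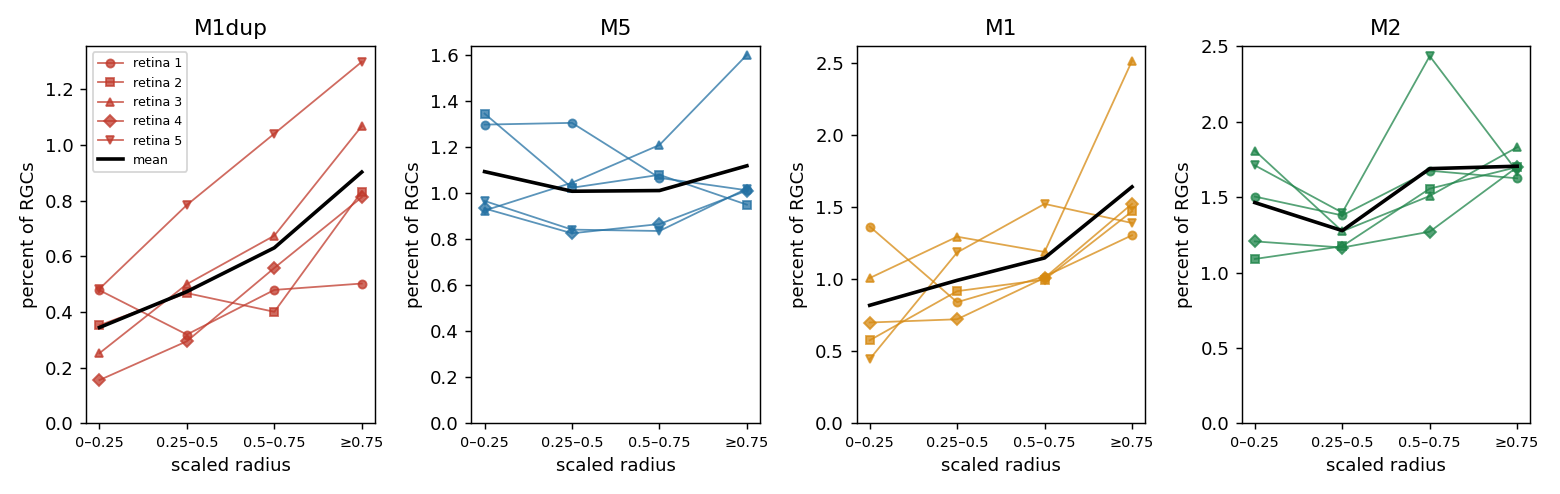
Share of M1dup, M5, M1 and M2 cells among RGCs (percent, own scale for each type, from 0) in 4 bins of the scaled radius, by retina (coloured lines) and as the mean over 5 retinas (black). The M1dup mean goes up in each bin, 0.345% to 0.903%, as does the M1 mean, 0.820% to 1.64%, while the M5 mean lies between 1.01% and 1.12%.

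The radial slope was steeper than that of M5 cells in each retina. The log2 ratio of periphery to centre for M1dup minus that for M5 was 0.80, 0.52, 0.50, 1.24 and 0.69 in retinas 1 to 5 (mean 0.75 ± 0.30; p = 0.063 and adjusted p = 0.188, exact two-sided sign-flip permutation test). With 5 retinas 0.063 is the smallest p this test can give. M1dup minus M1 was 0.24 ± 0.32 (above 0 in 3 of 5 retinas, exact adjusted p = 0.25) and M1dup minus M2 was 0.41 ± 0.48 (4 of 5, exact adjusted p = 0.25), neither shown to differ.

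Across the other axes no difference in share was shown. On the positive side of the scaled X axis M1dup cells were 0.595% ± 0.116 of RGCs, and on the negative side 0.590% ± 0.215 (log2 ratio 0.07 ± 0.15, SE; adjusted p = 0.80, edgeR), where 13 of 45 types (28.9%) differed. For the Y axis the shares were 0.552% ± 0.260 and 0.615% ± 0.0631 (-0.30 ± 0.25, SE; adjusted p = 0.38, edgeR). Neither axis has a stated anatomical direction. The quadrant of negative X and positive Y varied most between retinas, with 0.284%, 0.303%, 0.469%, 0.869% and 1.18% in retinas 1 to 5, and the quadrant of negative X and negative Y least, with 0.462% to 0.612%.

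Within M1dup, no gene passed the threshold between periphery and centre. Of 216 genes tested, 0 (0%) reached an adjusted p of 0.05 by edgeR, 26 had an unadjusted p under 0.05, and DESeq2 called 1, Nell1, a secreted signalling protein gene. Opn4 itself had 34.5, 31.1, 28.1, 29.0 and 20.8 puncta per 1000 in peripheral M1dup cells, against 32.7, 31.4, 19.6, 29.1 and 16.8 in central ones. The sides overlapped, with a log2 ratio of 0.17 ± 0.10 (SE; adjusted p = 0.58). Eomes (0.10 ± 0.10) and Tbx20 (0.02 ± 0.11) had ratios near 0.

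The 7 genes with the lowest adjusted p are given by name, chosen after their values were seen. Gad2, the GABA-synthesising enzyme GAD65, had 2.97, 3.63, 3.37, 3.57 and 4.16 in peripheral M1dup cells, against 1.55, 2.36, 2.58, 1.23 and 2.43 in central ones, higher in every retina (0.79 ± 0.17, SE; edgeR adjusted p = 0.061). Nell1 had a ratio of 0.81 ± 0.17 (SE; adjusted p = 0.061). Tac2 had 5.67, 5.51, 4.54, 3.13 and 3.76 peripherally, against 8.09, 9.17, 9.81, 6.15 and 3.22 centrally, lower in 4 of 5 retinas (-0.63 ± 0.16, SE; adjusted p = 0.12). Cdkn1c (1.12 ± 0.32) and the rod transducin gene Gnat1 (1.04 ± 0.28) had higher peripheral values, and Cpne4 (-0.42 ± 0.11) and the ceruloplasmin gene Cp (-0.78 ± 0.22) lower ones, each with an adjusted p between 0.12 and 0.13. Gnat1 belongs to rods; its peripheral values were 1.11, 0.760, 2.09, 2.75 and 2.48, against 0.409, 0.695, 0.991, 0.546 and 1.36 centrally. Across X 0 of 228 genes and across Y 0 of 225 (0% each) passed by edgeR, with 14 and 32 at an unadjusted p under 0.05 and 0 in either by DESeq2. The radial difference of a gene in M1dup was not shown to differ from that in M5 for any of 255 genes (0% past an adjusted p of 0.05 by edgeR, 18 at an unadjusted p under 0.05, 0 by DESeq2). Without retina 5, 3 genes were called radially, Cdkn1c, Nell1 and Tac2, and 5 across Y, and without retina 1 a single gene, Cd9, radially.

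The cell bodies of M1dup were larger than those of M1 and near those of M2. Median volumes were 607, 651, 713, 553 and 625 in retinas 1 to 5, against 546, 592, 611, 489 and 638 for M5 cells and 473, 474, 499, 421 and 503 for M1 cells. M1dup was above M1 in 5 of 5 retinas (log2 ratio 0.41 ± 0.08; p = 0.063, adjusted p = 0.25, exact sign-flip permutation test over 4 comparisons) and above M5 in 4 of 5 (0.13 ± 0.10, exact adjusted p = 0.25). The ratio was -0.04 ± 0.07 to M2 and 0.06 ± 0.07 to the median of the other 44 types, both with an exact adjusted p of 0.31. The mean of 630 ± 58.6 ranked 17th of the 45 types. Peripheral M1dup cells had a median volume of 615 ± 59.5 and central ones 664 ± 96.0, lower peripherally in 4 of 5 retinas (-0.10 ± 0.20, exact p = 0.38). Nuclear stain, as the deposited normalized DAPI mean, was 0.129 ± 0.0075, rank 37 of 45, against 0.149 ± 0.0195 in M5 cells.

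RGC types are known to form mosaics in which cells of one type keep a distance from each other, but close pairs of M1dup cells were more numerous than their share gave. Within 50 units in the same section 83 pairs of M1dup cells were seen (16, 28, 5, 14 and 20 by retina), against 54.4 expected from the type's share among all RGC neighbours in the same sections. The log2 of observed over expected was above 0 in all 5 retinas (0.76, 0.77, 0.35, 0.48 and 0.42; mean 0.56 ± 0.20; p = 0.063 and adjusted p = 0.083, exact sign-flip permutation test). M5 cells had 118 pairs against 192 expected, and M1dup minus M5 was 1.26 ± 0.63, above 0 in 5 of 5 retinas (exact p = 0.063, adjusted p = 0.083). M1dup minus M1 was 0.83 ± 0.30 (5 of 5, exact adjusted p = 0.083) and minus M2 was 0.64 ± 0.39 (4 of 5, exact adjusted p = 0.125).

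The excess was largest at the shortest distances. Under 15 units there were 25 pairs of M1dup cells (6, 12, 1, 1 and 5 by retina), against 5.75 expected. M5 cells had 1 such pair against 18.7 expected, M1 cells 2 against 18.4 and M2 cells 4 against 38.5. M1dup was the single type of the 45 (2.22%) with more such pairs than expected, at 4.35 times, and the ratio for the other 44 types ran from 0 to 0.734 with a median of 0.081. Retinas 1 and 2 held 18 of the 25 pairs, and in retina 4 the 1 pair seen was below the 1.18 expected. Within 50 units 3 of the 45 types (6.67%) had more pairs than expected. For M1dup, from 15 to 50 units there were 58 pairs against 48.6, from 50 to 100 units 104 against 110, and from 100 to 200 units 291 against 291.

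These contact pairs were mostly melanopsin cells, as were the members as a whole. Both cells had Opn4 in 23 of the 25 pairs, and both had all 3 markers in 16. Of the 47 cells in these pairs, 95.7% had Opn4 and 78.7% had all 3 markers. Among all 729 members, 578 had Opn4 and 501 (68.7%) had all 3 markers. The cells of a pair lay a median of 10.7 units apart in the plane of the section, with a median depth difference of 0.751. The larger cell had a median volume of 826 and the smaller 546, a median sum of 1302, against a median of 620 over all members. Whether a pair is 2 cells or 1 cell outlined in parts was not tested.

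**Figure D4:**
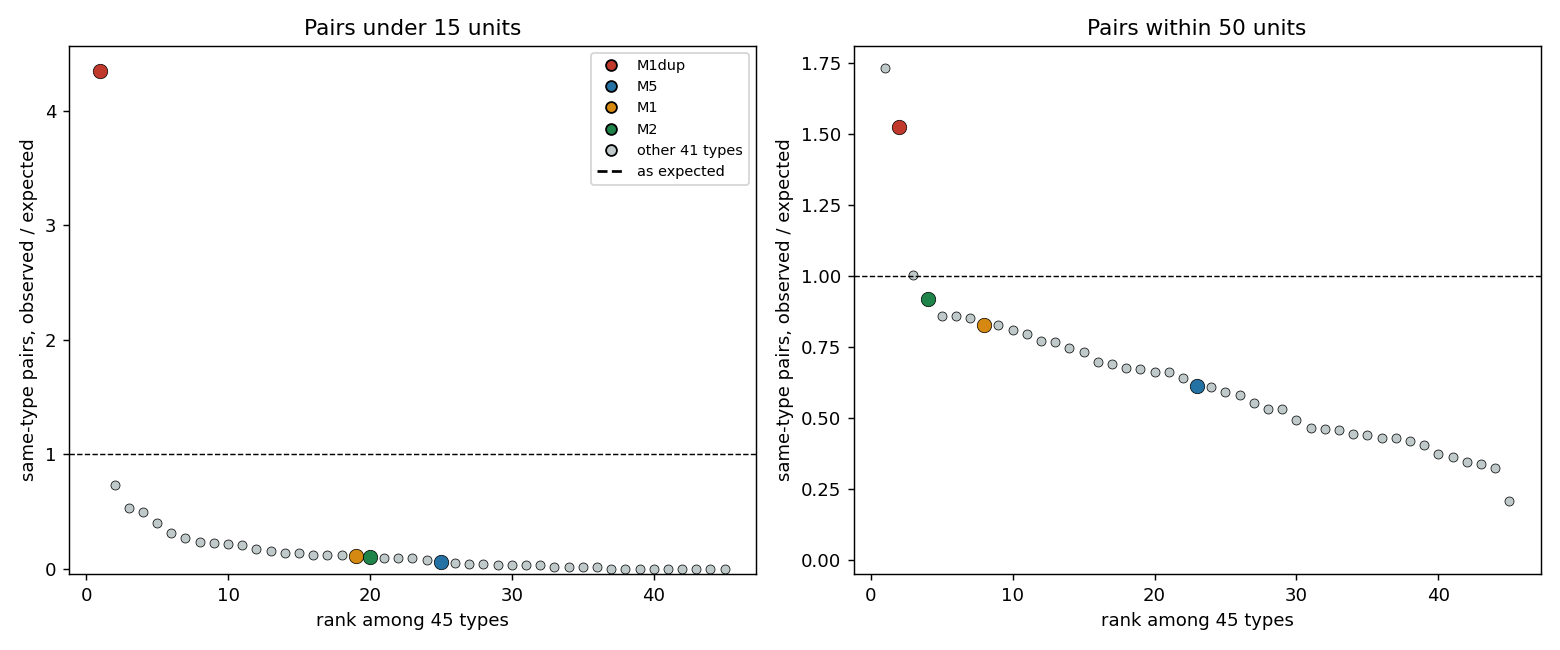
Observed over expected same-type pairs for each of 45 types, ranked, for pairs under 15 units (left) and within 50 units (right); the dashed line marks equal numbers. M1dup is alone above the line at the short distance, at 4.35, and second at 1.53 within 50 units, after 44_Novel (1.74).

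M1dup cells were also found beside other ipRGCs. Within 15 units they had 80 M1 neighbours against 19.2 expected, at 4.63, 4.06, 3.87, 3.28 and 4.80 times the expected number in retinas 1 to 5. They had 54 M2 neighbours against 26.3 (1.82 to 2.45 times by retina) and 28 M5 neighbours against 16.3 (1.04 to 3.24 times). M1 and M5 cells had 38 contacts against 37.7 expected, counted around M5 cells, and M1 and M2 cells had 87 against 51.5, counted around M1 cells. M5 and M2 cells had 69 against 50.8, counted around M5 cells (1.05 to 1.96 times by retina). In all, 180 M1dup cells (24.7%) lay within 15 units of another ipRGC, M1dup included, 79 of them beside an M1 cell. Of those 79, 93.7% had Opn4, against 75.2% of the 549 members with no ipRGC within 15 units, at pooled levels of 32.1 and 28.1 Opn4 puncta per 1000. Their Lxn levels were 16.2 and 13.7 and their median volumes 542 and 627. The M1dup excess beside M1 cells was a log2 value of 1.88 ± 0.23 within 15 units, 1.14 within 25 and 0.33 within 50 units. These neighbour counts were examined after the pairs had been seen and are given with no test.

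**Figure D5:**
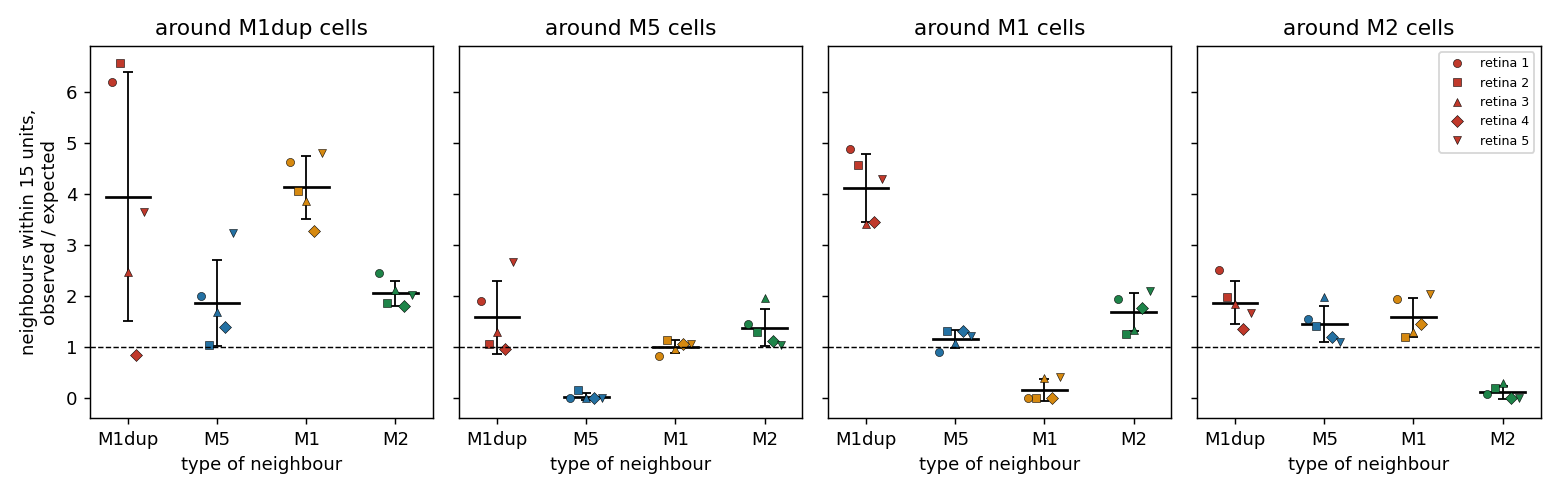
Neighbours within 15 units around M1dup, M5, M1 and M2 cells, as observed over expected numbers by the type of neighbour, in 5 retinas (points) with mean ± SD; the dashed line marks equal numbers. By retina, M1 neighbours around M1dup cells are at 3.28 to 4.80 times the expected number, and M1dup neighbours around M1 cells at 3.41 to 4.88 times. Pooled over the retinas, M5, M1 and M2 cells are beside their own type at 0.0535 to 0.109 times the expected number.

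Opn4 puncta were also found in the cells around M1dup cells. RGCs outside the 4 types with ipRGC names had 0.138, 0.141, 0.124, 0.118 and 0.0913 Opn4 puncta per cell within 25 units of an M1dup cell, against 0.0506, 0.0408, 0.0501, 0.0435 and 0.0452 at 100 to 200 units. The near cells were higher in every retina (log2 ratio 1.41 ± 0.28; p = 0.063, adjusted p = 0.063 over 3 genes, exact sign-flip permutation test). Eomes (0.35 ± 0.22) and Tbx20 (0.40 ± 0.39) were higher near M1dup cells in 5 of 5 retinas with the same p. Cd24a (0.70 ± 0.10) and Lxn (0.37 ± 0.18), not tested, had higher near values as well, while Rbpms, found in most RGCs, had 6.98 ± 0.443 puncta per cell near and 6.81 ± 0.603 far. The near cells numbered 3792, and their 0.122 ± 0.0198 Opn4 puncta per cell compare with 9.25 ± 2.12 in M1dup cells. The part of such puncta in the type calls of cells beside an M1dup cell was not tested.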

How the data were processed

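For each outlined cell the authors deposited raw puncta counts of 300 genes, not normalized, with its type name, retina, slide, section, volume and position, per the file headers. Positions scaled to a circle and the shape and DAPI scores were used as the authors deposited them, with no account of how they were made. Units of volume and position are not stated. Per the labels, the 4 samples are pairs of slides of 1 group, and no label ties a slide to a retina's animal; of 8 slides, 2 are shared by retinas. Precision is limited by 5 retinas and 76 to 222 M1dup cells in each.

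Counts were summed per retina and type or side (at least 10 cells) and fitted with edgeR 4.0.16 (quasi-likelihood; retina as a block; for genes, TMM and filterByExpr) under R 4.3.3 and adjusted by Benjamini-Hochberg; DESeq2 1.42.0 was the alternative. Type shares were fitted as cell counts over all 45 types, without TMM. Single values had exact two-sided sign-flip permutation tests over retinas. Expected pairs are the RGC neighbours of a type's cells times its share of the other cells in the section, and logs of pair ratios had 0.5 added above and below. Fits were tested on simulated data. Named genes are up to 15 higher and 12 lower than the mean of the other types and 12 each way against M5 by log2 ratio, in one direction in all retinas, with at least 100 puncta, and the panel genes of the ipRGC list. The members and gene lists were chosen with earlier results of these data known. Python 3.11.15 with numpy 2.4.6, pandas 2.3.3 and scipy 1.17.1 did the rest.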

Additional observations from a re-analysis of the deposited data

Results flagged for a closer look

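Of 79 sets of 5 retina values checked, 6 held a retina whose gap to its nearest neighbour was over 0.71 of the whole range (Dixon's 95% limit for 5 values), where chance flags about 1 set in 20. The share of M1dup cells in sections of at least 500 cells was 0.793% in retina 5, above the other 4. The level of Col9a1 in M1dup cells was 3.48 puncta per 1000 in retina 5, below the other 4, and that of Pou4f2 was 0.821 in retina 4, again the lowest. The excess of close M1dup pairs over M5 pairs was 0.15 on the log2 scale in retina 3, far under the other retinas. The median sphericity score of M1dup cells was 0.601 in retina 2, the highest. Merged outlines were 1.32% of M1dup cells in retina 3, the lowest. Retina 3 held the fewest M1dup cells, 76.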

How the results depend on the processing

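Of 287 recomputed values, 257 kept their direction and their side of the threshold or moved by less than the spread. The peripheral excess of M1dup had a log2 ratio of 0.64 and was no longer called with no replicate block; it was 0.58 to 0.84 leaving out each retina in turn, called each time. The X axis ratio, never called, ran from -0.03 to 0.16 leaving out each retina, below 0 without retina 1 (-0.0077) and without retina 2 (-0.0285), and the cause was not tested. Genes called radially within M1dup numbered 1 by DESeq2, 1 with the radius split at 0.6 and 0 to 3 leaving out each retina; across X, 1 in sections of at least 500 cells and 0 to 1 leaving out each retina; across Y, 0 to 5 leaving out each retina. Alternatives that restrict members, sections or outlines, and the neighbour distances, were chosen after seeing the data. The volume ratio to M2 turned to 0.0211 in members with all 3 markers and 0.0278 without merged outlines. Close pairs within 50 units came to 0.82 on the log2 scale in members with Opn4, and genes at least 2-fold lower than in other types to 71 in members with all 3 markers. Contacts with M1 cells came to 1.14 within 25 units, 0.33 within 50 and 2.13 in members with Opn4. Genes with few puncta were not tested within M1dup.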
